A study of Rattus norvegicus with 12 samples.

Results

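The genes described are 48 listed genes of the endosomal sorting route: the ESCRT complexes, the VPS4 ATPases that take them apart, the ALIX group, 2 deubiquitinases, retromer and its sorting nexins, the HOPS tethering complex, and early and late endosome Rab proteins with one tether. They were listed by gene name, as genes of the membrane sorting route in which LITAF acts. Of the 48, 47 had a row in the gene table (16204 gene rows) and all 47 passed the filter on low counts, among 11398 genes tested. Snx1 was not analysed here.

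The cells were H9C2, a rat myoblast line derived from embryonic heart and labelled cardiomyoblast and wild type. Bulk mRNA was sequenced in 12 libraries, 4 in each of 3 groups. The H/R + LITAF group carried a lentivirus overexpressing LITAF and then went through hypoxia at 1% oxygen for 8 h and reoxygenation for 2 h. The H/R group carried an empty lentivirus and had the same hypoxia and reoxygenation. The control group was kept at normal oxygen with no virus at all, so virus and H/R cannot be told apart in any comparison against it. The labels call the replicates biological but do not say whether they were separate cultures, so the p-values speak of the scatter among these libraries, which may be technical. Levels are TMM-scaled CPM, the counts of a gene per M (mega) of its library's counts, with mean ± SD over n = 4 per group, and libraries are given in the order of their replicate numbers, 1 to 4. Fold changes are log2 ± SE from edgeR's quasi-likelihood test, and a gene was called changed at a Benjamini-Hochberg adjusted p under 0.05 over all genes tested.

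Membrane proteins tagged with ubiquitin are gathered on endosomes by ESCRT-0, passed to ESCRT-I and ESCRT-II, and enclosed in vesicles that bud into the endosome when ESCRT-III filaments form and VPS4 removes them. Retromer and sorting nexins carry other cargo back from endosomes, and HOPS, working with Rab7, tethers late endosomes to lysosomes for fusion. In muscle cells, as in others, this route sets which receptors and channels are degraded and which return, and ESCRT-III also helps to reseal wounded plasma membrane.

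Litaf, the overexpressed gene, stood at 2691, 2008, 2532 and 2120 CPM in the H/R + LITAF libraries, 549, 619, 573 and 598 CPM in the H/R libraries, and 458, 485, 491 and 456 CPM in the control libraries. Total counts were 17.2 to 18.4 M in H/R + LITAF, 16.9 to 18.1 M in H/R and 19.2 to 20.7 M in control libraries. Values that were not whole numbers made up 11.6 to 12.2% of the H/R + LITAF columns, 11.1 to 12.0% of the H/R columns and 2.79 to 3.34% of the control columns. In addition, 72 gene IDs had repeated rows with different values in the control columns, and 0 did in the H/R + LITAF or the H/R columns. Both differences in the deposited values follow the groups, so they and the treatment cannot be told apart in comparisons against control, and whether the control libraries were quantified in the same way is not stated. The H/R + LITAF libraries stood apart from each other. Before the first principal component was taken over these and the H/R libraries, each group's own mean was subtracted. It held 52.3% of the variance left, which lies within groups, so it cannot show a difference between them. Library 1 scored -0.68, library 3 -0.20, library 4 0.25 and library 2 0.64, while the H/R libraries lay between -0.13 and 0.12. Cell type markers moved with the treatment as well. The summed level of 12 cardiomyocyte markers was 169 to 227 CPM in H/R + LITAF, 85.0 to 116 CPM in H/R and 1394 to 1511 CPM in control, and 4 of the 12 (Tnnt2, Pln, Nkx2-5 and Gata4) passed the filter on low counts, with Tnni3 at 0 in all H/R and control libraries. Pln (5.90, 4.30 and 1119 CPM in H/R + LITAF, H/R and control) and Tnnt2 (169, 67.9 and 304 CPM) made up most of that sum in control, and Nkx2-5 went the other way, 2.41-fold higher in H/R than in control cells (edgeR adjusted p 8.27e-06). For 12 skeletal myoblast markers the sum was 551 to 634 CPM in H/R + LITAF, 528 to 661 CPM in H/R and 2237 to 6505 CPM in control. Cdh15 made up most of it in the groups with H/R and, on average, Myog in control, while 4 of the 9 markers tested were called higher in H/R + LITAF against H/R, namely Tnni1 (7.55-fold), Myh3 (4.44-fold), Chrna1 (4.34-fold) and Acta1 (2.23-fold), and Des was 3.502-fold higher in H/R than in control. For 8 fibroblast markers it was 27878 to 36379 CPM in H/R + LITAF, 23610 to 26811 CPM in H/R and 60419 to 76261 CPM in control, with Dcn at 0 in all libraries. For 5 smooth muscle markers it was 5377 to 8253 CPM in H/R + LITAF, 6582 to 6921 CPM in H/R and 4127 to 5073 CPM in control. Acta2 made up most of it, and Myh11 went the other way, 3.67-fold lower in H/R than in control cells (edgeR adjusted p 2.07e-07). Endothelial, leukocyte and epithelial markers summed to at most 0.918, 2.47 and 76.0 CPM in any library. The epithelial sum was nearly all Krt8 (63.5, 36.7 and 34.7 CPM in H/R + LITAF, H/R and control). Krt8 was called higher in H/R + LITAF against H/R (log2 0.79 ± 0.18, edgeR adjusted p 0.0167). The part of these differences in the results that follow was not tested.

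In H/R + LITAF against H/R cells, none of the 47 endosomal sorting genes was called changed by edgeR's quasi-likelihood test, while 4.88% of all genes tested were (3.73% higher and 1.15% lower). Stambp and Vps35 had an unadjusted p under 0.05 (2 of 47, against 2283 of 11398 genes tested), and DESeq2 called none at the adjusted threshold and also 2 by unadjusted p. The median log2 fold change of the 47 was -0.06, against -0.01 over all genes tested, and the values ran from -0.44 to 0.19. The 95% interval of the difference lay within a 1.5-fold change in either direction for 40 of the 47 and within a 2-fold change for 46, Rab5a being the exception. The groups did not overlap in 3 of the 47 (6.38%), Hgs, Vps36 and Stambp, against 18.9% of all genes tested. RNA from whole cultures cannot tell fewer cells of a kind from less of an mRNA per cell.

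**Figure D1:**
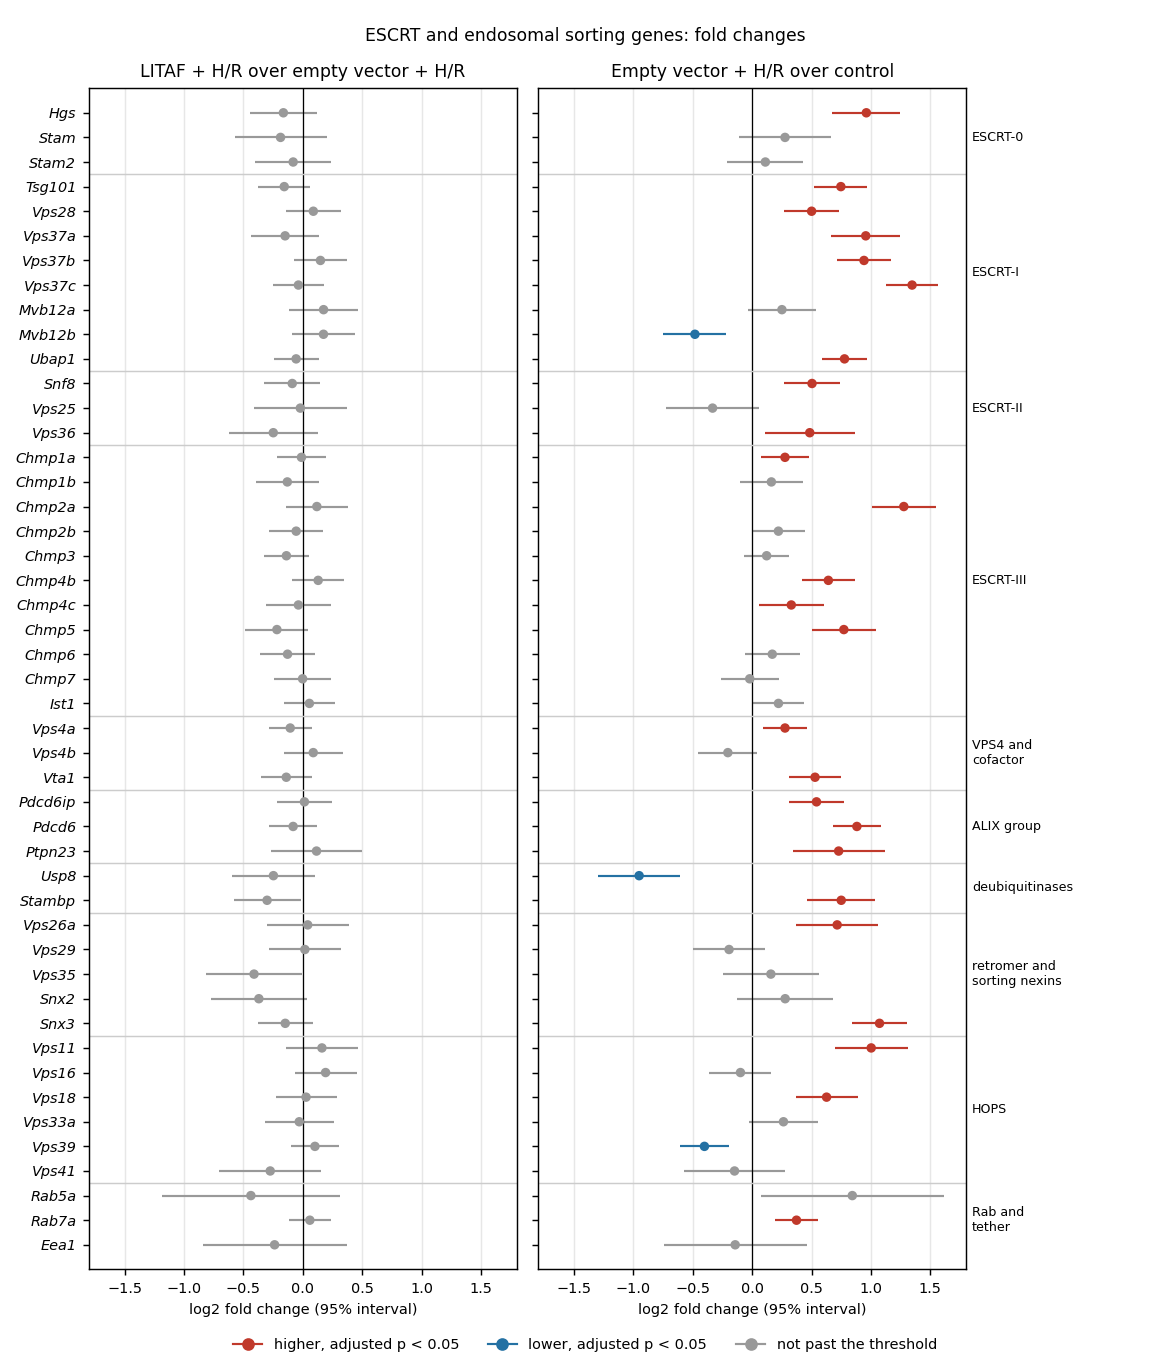
Log2 fold change (points) with its 95% interval (bars) for each of the 47 endosomal sorting genes, ordered by complex, in H/R + LITAF against H/R cells and in H/R against control cells. Against H/R the points lie between -0.44 and 0.19 and none was called, whereas against control 25 genes were called higher and 3 lower.

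Stambp (ENSRNOG00000012227, also AMSH) encodes a deubiquitinase that acts on cargo bound to ESCRT-0. It had 16.7, 15.3, 15.1 and 14.6 CPM in H/R + LITAF libraries, against 19.8, 18.8, 20.5 and 17.1 CPM in H/R libraries. All 4 H/R + LITAF values lay under the lowest H/R value. The log2 difference was -0.30 ± 0.13, with an adjusted p of 0.221 by edgeR, so it was not called. Hgs, the ESCRT-0 subunit HRS that binds ubiquitin and endosomal lipid, had 109.8, 126.8, 118.7 and 122.1 CPM with LITAF and 126.9, 128.5, 127.3 and 151.9 CPM with the empty virus. Its highest value with LITAF was just under the lowest without it, and the difference of -0.16 ± 0.13 had an edgeR adjusted p of 0.53. Vps36, an ESCRT-II subunit that binds ubiquitin, had 32.3, 29.0, 34.3 and 32.0 CPM with LITAF and 39.4, 38.7, 38.8 and 34.7 CPM in H/R. These groups also missed each other narrowly, at -0.25 ± 0.18 on the log2 scale and an edgeR adjusted p of 0.469.

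Vps35 (ENSRNOG00000017612), the large scaffold subunit of retromer, varied more within the LITAF group than between groups. Its levels were 285, 131, 225 and 184 CPM in H/R + LITAF libraries and 277, 268, 295 and 257 CPM in H/R libraries. Library 1 of the LITAF group lay within the H/R values and the other 3 lay under all of them. Over all libraries the log2 difference was -0.41 ± 0.19 (edgeR adjusted p 0.241), and without H/R + LITAF library 1 it was -0.59 (edgeR adjusted p 0.0346). Eea1, the early endosome tether that binds Rab5, was called lower in that fit too, at -0.67 with an edgeR adjusted p of 0.0488. Those 2 were the only members called lower without library 1, a fit in which 5.15% of all genes were called lower. With all libraries, Eea1 had 72.2, 20.9, 40.1 and 27.0 CPM in H/R + LITAF and 51.5, 38.2, 55.0 and 44.1 CPM in H/R, and it is named here after its values were seen.

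In the other complexes, the member with the smallest p against H/R was not called either. Tsg101, the ESCRT-I subunit that viruses recruit to bud, had 84.1, 83.0, 83.5 and 81.0 CPM with LITAF and 90.4, 98.9, 98.7 and 81.5 CPM in H/R (log2 -0.16 ± 0.10, edgeR adjusted p 0.432). Chmp5, an ESCRT-III regulator, had 58.7, 41.4, 56.2 and 45.0 CPM with LITAF and 60.0, 58.8, 58.5 and 56.8 CPM in H/R (-0.22 ± 0.12, edgeR adjusted p 0.353). Vta1, the VPS4 cofactor, had 57.1, 55.3, 54.8 and 54.4 CPM with LITAF and 64.0, 61.4, 62.2 and 56.4 CPM in H/R (-0.14 ± 0.10, edgeR adjusted p 0.482). Pdcd6 (ALG-2), the calcium-binding partner of ALIX, had 73.0, 77.6, 73.5 and 79.6 CPM with LITAF and 78.9, 85.8, 81.0 and 75.7 CPM in H/R (-0.08 ± 0.09, edgeR adjusted p 0.677). Vps16, a core subunit of HOPS, had 35.6, 49.2, 44.9 and 47.9 CPM with LITAF and 38.7, 42.5, 35.8 and 38.4 CPM in H/R. Its difference of 0.19 ± 0.12 was the highest of the 47 and was not called (edgeR adjusted p 0.413). In each of these genes the groups overlapped. Rab5a, an early endosome Rab, had few counts. It had 20.15, 5.3, 16.61 and 21.1 counts in H/R + LITAF libraries, 23.54, 24.91, 22.88 and 15.05 counts in H/R libraries and 12.0, 17.0, 13.0 and 8.0 counts in control libraries. Its interval against H/R ran from -1.18 to 0.31 on the log2 scale, so only large differences could have been seen. Whether reads of this gene were assigned to other annotated features was not tested, so its values may not stand for all of its mRNA. Its paralogs Rab5b and Rab5c, outside the members, were well measured. In H/R + LITAF, H/R and control, Rab5b had 160, 163 and 190 CPM and Rab5c 174, 170 and 161 CPM. Neither was called in any comparison.

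Within the LITAF group the members separated the libraries in opposite directions, as did all genes tested. In 12 of the 47 (25.5%, against 23.995% of all genes tested) the level was highest in library 1, then 3, then 4 and lowest in library 2. They were Stam, Vps37a, Chmp1b, Chmp2b, Chmp5, Vps4b, Usp8, Vps26a, Vps35, Snx2, Vps41 and Eea1. In 15 members (31.9%, against 21.3% of all genes) the order was the exact reverse, and they were Hgs, Vps28, Vps37b, Vps37c, Mvb12b, Snf8, Vps25, Chmp1a, Chmp2a, Chmp4b, Chmp6, Ist1, Vps11, Vps16 and Vps33a. Library 1 exceeded library 2 by 3.46-fold for Eea1, 2.29-fold for Vps41, and 2.17-fold for both Vps35 and Snx2. Library 2 exceeded library 1 by 1.48-fold for both Vps25 and Chmp4c. Levels were lower in library 2 than in library 1 by over 0.5 log2 in 23.4% of members, against 22.5% of all genes. They were higher by over 0.5 log2 in 4.3% of members, against 9.0% of all genes. Genes on both sides included subunits of the same complex. Among HOPS genes, Vps41 had 74.5, 32.5, 66.8 and 43.6 CPM in the 4 LITAF libraries, whereas Vps11 had 50.1, 60.0, 55.5 and 59.7 CPM. The members' median coefficient of variation was 9.39% in H/R + LITAF, 5.31% in H/R and 14.5% in control libraries, while over all genes tested it was 12.2% in H/R + LITAF, 7.45% in H/R and 16.1% in control.

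**Figure D2:**
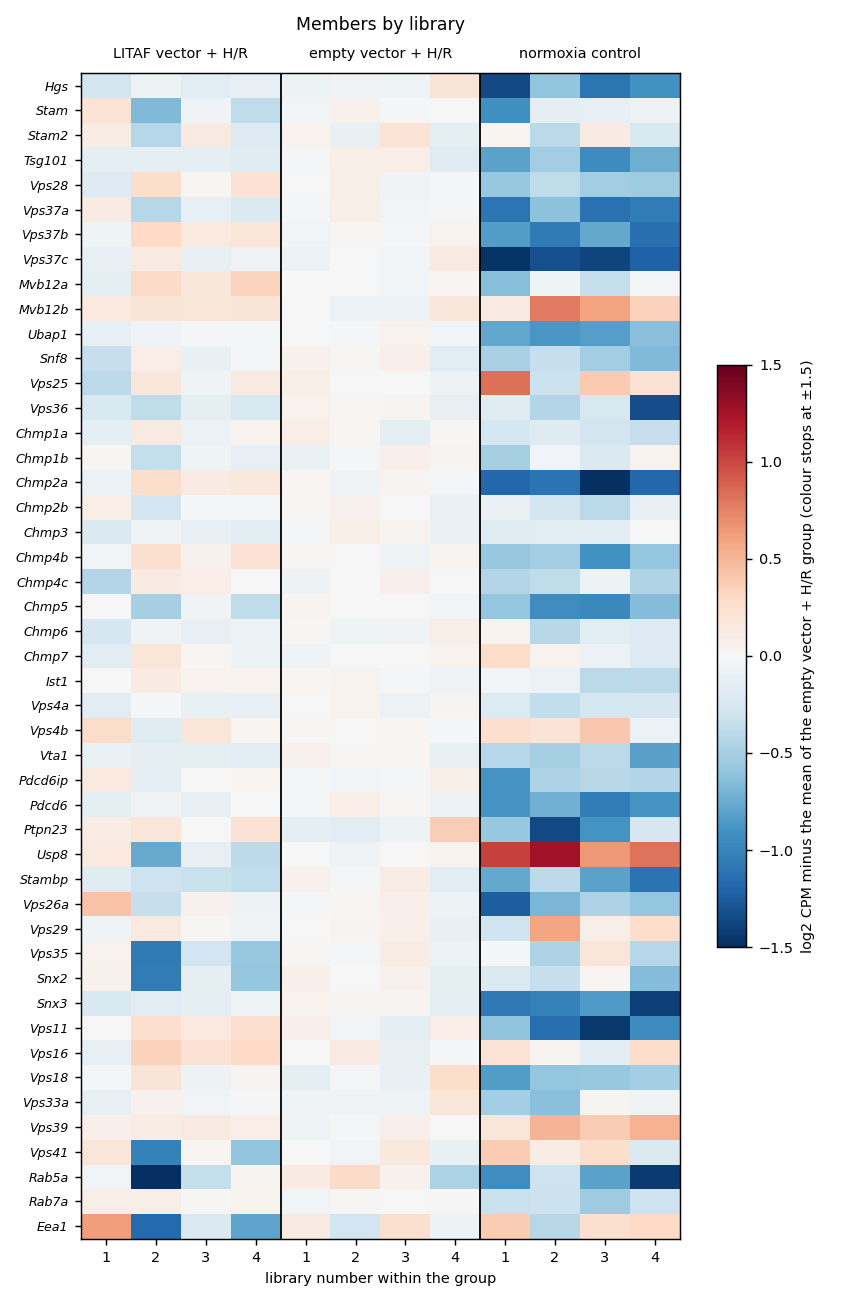
Level of each of the 47 genes in each library, as log2 CPM minus the gene's mean over the 4 H/R libraries (colour stops at 1.5 either way), with genes ordered by complex and libraries 1 to 4 of each group from left to right. Most genes are bluer, that is lower, in the control columns, and within the LITAF columns libraries 1 and 2 differ in opposite directions for different genes.

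In H/R against control cells, 25 of the 47 genes rose (53.2%, against 31.8% of all genes tested) and 3 fell (6.38%, against 31.8%) by edgeR's quasi-likelihood test. In either direction 28 of the 47 were called, a share slightly under the 63.6% of all genes. The 19 others were not called. The median log2 fold change was 0.33, against 0.01 over all genes, and the groups did not overlap in 29 of the 47 (61.7%), against 58.6% of all genes. Rises were called in 6 of 8 ESCRT-I genes, 2 of 3 ESCRT-II genes, 5 of 11 ESCRT-III genes, and all 3 genes of the ALIX group. They were called in 2 of 3 VPS4 genes, 2 of 5 retromer and sorting nexin genes, 2 of 6 HOPS genes, 1 of 3 ESCRT-0 genes, 1 of 2 deubiquitinases and 1 of 3 Rab and tether genes. The 3 that fell were Usp8, Mvb12b and Vps39.

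In ESCRT-0, Hgs rose and its STAM partners were not called. Hgs (ENSRNOG00000036696) had 127, 129, 127 and 152 CPM in H/R libraries, against 52.3, 88.7, 62.5 and 71.2 CPM in control libraries. Every H/R value was above every control value, and the log2 fold change was 0.96 ± 0.14 (edgeR adjusted p 1.2e-05). Stam and Stam2, which pair with HRS and also bind ubiquitin, differed by 0.28 ± 0.18 and 0.11 ± 0.15. Control library 1 held the lowest Stam value, 47.6 CPM, against 82.0 to 84.9 CPM in the other control libraries.

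ESCRT-I held the largest rise of the set. Vps37c (ENSRNOG00000046439), one of the alternative VPS37 subunits, had 54.1, 57.0, 55.8 and 63.3 CPM in H/R libraries, against 20.7, 23.0, 22.2 and 24.7 CPM in control libraries. The lowest H/R value was above every control value by a wide margin, and the log2 fold change was 1.35 ± 0.10 (2.54-fold higher, edgeR adjusted p 1.16e-08). The other VPS37 genes rose as well, Vps37a by 0.96 ± 0.14 and Vps37b by 0.94 ± 0.11 on the log2 scale. Vps37a (ENSRNOG00000012001) had 28.8, 31.1, 28.3 and 28.7 CPM in H/R libraries and 13.7, 19.1, 13.4 and 14.1 CPM in control libraries, with control library 2 the highest control. Tsg101 rose by 0.75 ± 0.11, to 90.4, 98.9, 98.7 and 81.5 CPM in H/R libraries, against 52.7, 64.1, 48.0 and 55.5 CPM in control libraries. Ubap1, a subunit of a ubiquitin-sorting form of ESCRT-I, rose by 0.78 ± 0.09, and Vps28, which links ESCRT-I to ESCRT-II, by 0.50 ± 0.11. The MVB12 subunits, which stabilise the complex, went different ways. Mvb12b fell, with 39.9, 37.5, 37.4 and 44.9 CPM in H/R libraries and 43.9, 68.6, 60.3 and 50.5 CPM in control libraries (log2 -0.48 ± 0.13, edgeR adjusted p 0.00307), and these groups overlapped at H/R library 4 and control library 1. Mvb12a differed by 0.25 ± 0.14 and was not called (edgeR adjusted p 0.119), but was called in the fit with replicate number as a block, at 0.27 (edgeR adjusted p 0.0444), and without control library 4 (0.33).

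In ESCRT-II, Snf8 (VPS22) rose by 0.50 ± 0.11 and Vps36 by 0.48 ± 0.18. Vps36 had 39.4, 38.7, 38.8 and 34.7 CPM in H/R libraries and 33.4, 28.0, 32.0 and 15.05 CPM in control libraries. Control library 4 was far under the other control libraries, and the groups met narrowly without overlapping. Vps36 lost its call without H/R library 1 (edgeR adjusted p 0.0544) and without H/R library 3 (0.0516). Vps25, the third subunit, had 39.7, 37.0, 36.9 and 35.2 CPM in H/R libraries and 65.8, 29.8, 48.8 and 43.2 CPM in control libraries, and was not called. Without control library 2, the lowest control, it was called lower at -0.50 (edgeR adjusted p 0.0111).

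In ESCRT-III, whose CHMP proteins polymerise to narrow the neck of the vesicle, Chmp2a rose most. Chmp2a (ENSRNOG00000043328) had 113, 107, 114 and 109 CPM in H/R libraries, against 49.1, 51.3, 33.4 and 49.0 CPM in control libraries. The groups were far apart, with a log2 fold change of 1.28 ± 0.13 (edgeR adjusted p 2.48e-07). Its paralog Chmp2b had 0.22 ± 0.11 and was not called. Chmp4b, the main filament subunit, rose by 0.64 ± 0.11, and Chmp5 by 0.77 ± 0.13 with no overlap of the groups. Chmp1a rose by 0.28 ± 0.10 and Chmp4c by 0.33 ± 0.13, and both lost their call when single libraries were left out. For Chmp1a this was H/R library 1, 2 or 4 (edgeR adjusted p up to 0.0654), and for Chmp4c H/R library 2, 3 or 4 or control library 1, 2 or 4 (up to 0.0832). Chmp1b, Chmp3, Chmp6, Chmp7 and Ist1 were not called, with log2 values of -0.02 to 0.22. Ist1 was called higher without control library 1 (0.29) or 2 (0.27). Scaled by library totals or by upper quartile, Chmp2b, Chmp3, Chmp6 and Ist1 were all called higher (edgeR adjusted p up to 0.0448), so these calls depend on the scaling.

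Around the filament, Vps4a rose by 0.28 ± 0.09 and Vta1 by 0.53 ± 0.10, while Vps4b differed by -0.21 ± 0.12 and was called lower only without control library 4 (-0.29). Vta1 had 64.0, 61.4, 62.2 and 56.4 CPM in H/R libraries and 45.5, 43.0, 46.0 and 34.7 CPM in control libraries, without overlap. The ALIX group, which can bring ESCRT-III to membranes without ESCRT-II, rose throughout. Pdcd6 (ENSRNOG00000014485) had 78.9, 85.8, 81.0 and 75.7 CPM in H/R libraries, against 43.3, 48.6, 39.0 and 43.6 CPM in control libraries (0.88 ± 0.10, edgeR adjusted p 6.68e-07). Pdcd6ip, which encodes ALIX itself, rose by 0.54 ± 0.11. Ptpn23 (HD-PTP), a relative of ALIX, rose by 0.73 ± 0.18, with 54.4, 53.0, 56.6 and 76.7 CPM in H/R libraries and 40.1, 23.3, 31.9 and 49.99 CPM in control libraries. H/R library 4 was the high one, and the lowest H/R value was narrowly above the highest control value.

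**Figure D3:**
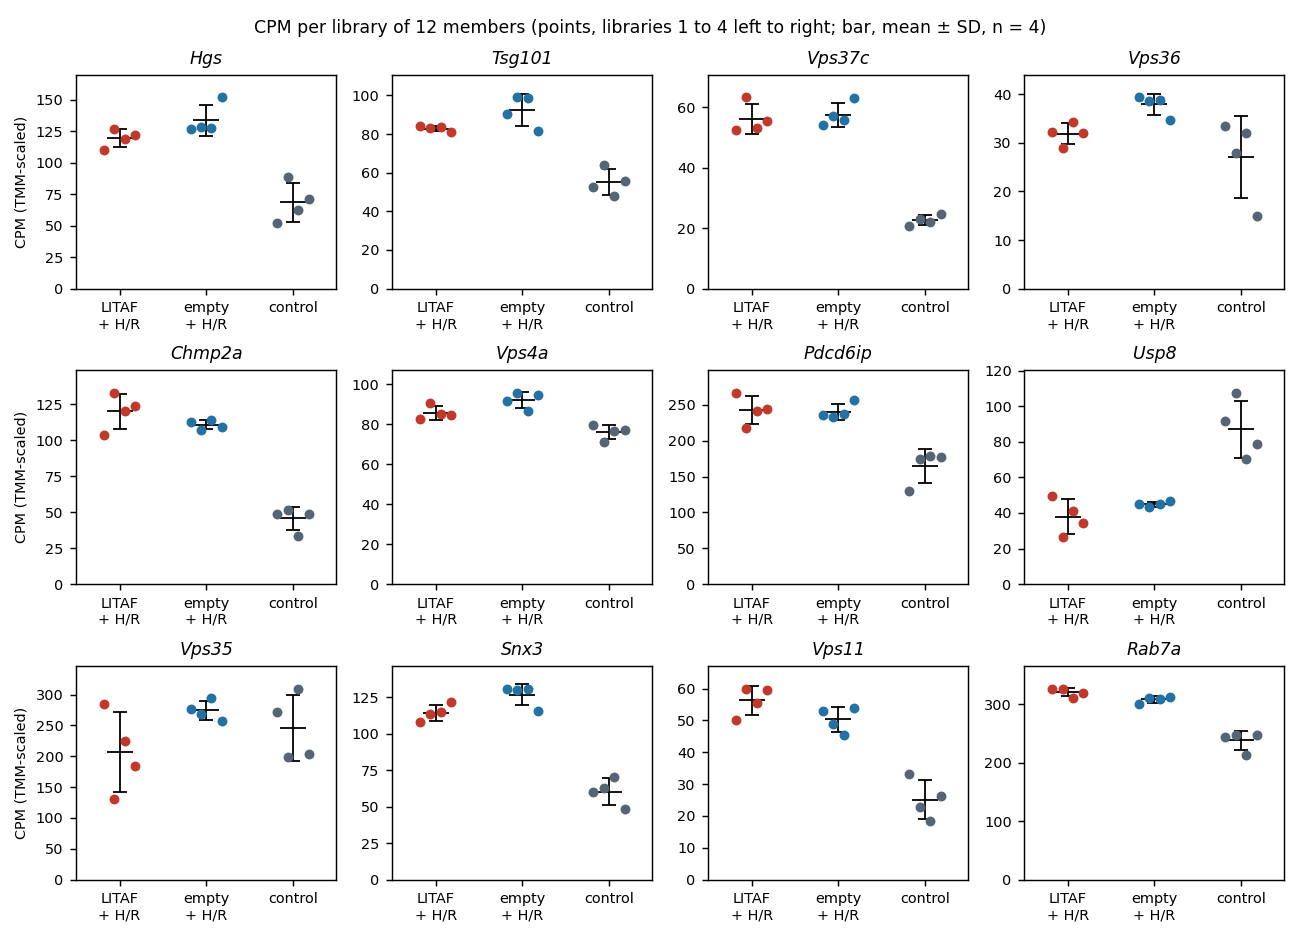
CPM in each library (points, libraries 1 to 4 from left to right) with mean ± SD (bars, n = 4) for 12 of the members, in H/R + LITAF (LITAF + H/R on the axis), H/R (empty + H/R) and control cells. Vps37c, Chmp2a and Snx3 are higher and Usp8 lower in both groups with H/R than in control, and the spread of Vps35 is widest in the LITAF group.

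The deubiquitinases moved apart. Usp8 (ENSRNOG00000010729), which removes ubiquitin from receptors and from ESCRT-0 itself, had 44.9, 43.2, 45.2 and 46.5 CPM in H/R libraries, against 91.4, 107, 70.6 and 78.8 CPM in control libraries. All H/R values were under all control values, and the log2 fold change was -0.95 ± 0.16 (1.94-fold lower, edgeR adjusted p 8.89e-05). Stambp rose, with 19.8, 18.8, 20.5 and 17.1 CPM in H/R libraries and 11.2, 14.4, 10.9 and 8.79 CPM in control libraries (0.75 ± 0.13, edgeR adjusted p 0.000143).

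Of the retromer trimer, Vps26a rose by 0.71 ± 0.16, and Vps29 (-0.20 ± 0.14) and Vps35 (0.16 ± 0.19) were not called. Vps26b, a paralog of Vps26a outside the members, stood higher, at 297 CPM in H/R and 255 CPM in control. It was not called (0.22 ± 0.10, edgeR adjusted p 0.0586). Nor was it called in H/R + LITAF against H/R (-0.32 ± 0.10, edgeR adjusted p 0.0762). Without control library 1, Vps29 was called lower at -0.33. Snx3 (ENSRNOG00000046705), the sorting nexin that brings retromer to early endosomes, had 131, 129.8, 131 and 116 CPM in H/R libraries, against 60.3, 62.7, 70.1 and 48.2 CPM in control libraries. The groups were well separated, at 1.07 ± 0.11 on the log2 scale (edgeR adjusted p 3.92e-07). Snx2 differed by 0.28 ± 0.19 and was not called.

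HOPS genes were mixed. Vps11 (ENSRNOG00000010733), a core subunit, had 53.0, 48.9, 45.6 and 54.0 CPM in H/R libraries, against 33.1, 22.9, 18.4 and 26.2 CPM in control libraries, and rose by 1.00 ± 0.15 (edgeR adjusted p 1.7e-05). Vps18, another core subunit, rose by 0.63 ± 0.12. Vps39, a subunit specific to HOPS, fell, with 52.9, 54.6, 58.2 and 55.0 CPM in H/R libraries and 62.3, 78.7, 71.7 and 79.0 CPM in control libraries (-0.40 ± 0.10, edgeR adjusted p 0.00164). These groups did not overlap. Vps41, the other subunit specific to HOPS, had -0.15 ± 0.20, and Vps16 and Vps33a had -0.10 ± 0.12 and 0.26 ± 0.14, none called. Rab7a, the late endosome Rab, rose by 0.37 ± 0.08, to 299.7, 311, 309 and 312 CPM in H/R libraries against 244, 247, 212 and 248 CPM in control libraries. Rab5a (0.84 ± 0.36, edgeR adjusted p 0.0538) and Eea1 (-0.14 ± 0.28) were not called. Rab5a was called higher without H/R library 4 (0.98) or control library 2 (1.05), and Vps33a without control library 3 (0.38). The fit of the H/R and control libraries alone called Rab5a higher (0.84, edgeR adjusted p 0.0213), and with replicate number as a block it called Rab5a (0.84, edgeR adjusted p 0.00142), Snx2 (0.29, 0.0201) and Vps33a (0.28, 0.0446) higher.

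Promoters of members were searched for 11 short motifs, and 1 of them, TCACGTGA, was picked after the search to be shown. Other motifs occurred in more members, such as CCGGAAG in 14, and all counts are given below. RefSeq promoters on GRCr8, from 250 bases before to 50 after the annotated start, were matched for 42 members (43 promoters), and Chmp1b, Chmp4c, Chmp6, Chmp7, Vps28 and Vps37a had no entry. The build behind the count table is not stated. The motif TCACGTGA, a form of the E-box that basic helix-loop-helix factors of the TFEB family bind, was present on either strand in 6 of 42 members (14.3%), against 1.74% of 10644 promoters of tested genes. Those 6 were Vps11, Vps26a, Pdcd6ip, Vps16, Vps33a and Snx2, the first 3 called higher in H/R against control and the last 3 not called. Among all 47 members, 53.2% were called higher there. Whether the motif relates to these changes was not tested. The sequences of the HOPS genes Vps11 and Vps16, the retromer gene Vps26a and Pdcd6ip are printed 5′ to 3′ on the gene's strand, with the motif in capitals:
Vps11, chr8:53595328-53595627, minus strand: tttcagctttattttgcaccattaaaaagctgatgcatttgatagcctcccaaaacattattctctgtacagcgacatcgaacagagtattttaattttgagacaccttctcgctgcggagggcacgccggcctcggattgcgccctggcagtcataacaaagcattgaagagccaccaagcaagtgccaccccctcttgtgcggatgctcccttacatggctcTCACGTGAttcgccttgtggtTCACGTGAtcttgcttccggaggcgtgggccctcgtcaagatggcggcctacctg
Vps26a, chr20:30976840-30977139, minus strand: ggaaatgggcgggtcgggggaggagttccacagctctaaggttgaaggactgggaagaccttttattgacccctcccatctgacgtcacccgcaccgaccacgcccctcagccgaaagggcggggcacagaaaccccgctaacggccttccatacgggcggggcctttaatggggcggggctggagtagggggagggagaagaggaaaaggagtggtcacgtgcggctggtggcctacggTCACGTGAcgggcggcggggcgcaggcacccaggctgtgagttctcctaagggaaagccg
Pdcd6ip, chr8:122524944-122525243, minus strand: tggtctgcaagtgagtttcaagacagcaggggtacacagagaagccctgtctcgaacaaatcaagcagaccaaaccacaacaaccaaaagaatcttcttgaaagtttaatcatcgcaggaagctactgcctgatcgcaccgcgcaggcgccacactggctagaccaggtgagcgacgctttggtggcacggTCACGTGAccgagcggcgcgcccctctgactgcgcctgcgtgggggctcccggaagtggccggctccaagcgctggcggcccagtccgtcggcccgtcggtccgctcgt
Vps16, chr3:138075460-138075759, plus strand: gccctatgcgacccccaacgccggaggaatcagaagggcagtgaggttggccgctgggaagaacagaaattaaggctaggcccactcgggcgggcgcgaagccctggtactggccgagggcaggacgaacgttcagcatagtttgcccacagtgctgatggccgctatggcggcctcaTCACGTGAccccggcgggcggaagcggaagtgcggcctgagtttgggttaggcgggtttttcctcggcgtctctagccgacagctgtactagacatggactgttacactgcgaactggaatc
Distances from the start are counted to the motif's first base. Vps11 carried the motif at 26 and 5 bases before its start, and the second of these matches runs past the start. The others printed carried it once, at 10 bases before the start in Vps26a, 59 in Pdcd6ip and 72 in Vps16. Not printed are Vps33a, which carried it at 47 and 31 bases before its start, and Snx2, which carried it once, at 17. Each of 11 motifs was searched on both strands, and overlapping forms were counted separately: CACGTG in 8 members (19.0%, against 9.25%) and the longer CLEAR element, a palindrome that contains TCACGTGA, in 3 (7.14%, against 0.536%). TGACGTCA occurred in 3 (7.14%, against 3.13%), TGACNNNGC in 11 (26.2%, against 14.3%), GAANNTTC in 3 (7.14%, against 5.64%), CCGGAAG in 14 (33.3%, against 17.8%) and ACTTCCG in 10 (23.8%, against 13.4%). TTACGTAA, TGACTCAGC and the endoplasmic reticulum stress response element (ERSE) occurred in no member, against 0.197%, 0.404% and 0.15% of tested genes' promoters. A match describes letters in this window and shows no binding.

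In H/R + LITAF against control cells, which shares the control libraries with the comparison above, 24 of the 47 genes rose (51.1%, against 32% of all genes) and 3 fell (6.38%, against 32.6%). In either direction 27 of the 47 were called, a share under the 64.6% of all genes. The groups did not overlap in 26 of the 47 (55.3%), against 52.1% of all genes. The median log2 fold change was 0.29, against -0.01 over all genes. The values side by side were close for the genes with the largest differences: Vps37c had 1.31 ± 0.10 with LITAF and 1.35 ± 0.10 without, Chmp2a 1.39 ± 0.13 and 1.28 ± 0.13, and Snx3 0.92 ± 0.11 and 1.07 ± 0.11. Usp8 had -1.20 ± 0.16 with LITAF and -0.95 ± 0.16 without. The difference between each pair is the H/R + LITAF against H/R comparison given first, in which none was called. The genes that fell were again Usp8, Mvb12b (-0.31 ± 0.12) and Vps39 (-0.30 ± 0.10), of which Mvb12b lost its call without any 1 of the LITAF libraries or without control library 2 or 3. Scaled by library totals or upper quartile, or fitted with the control and LITAF libraries alone, Mvb12b and Vps39 stayed lower in direction but were not called. In that fit of the 2 groups the edgeR adjusted p was 0.0958 for Mvb12b and 0.0624 for Vps39, and Chmp1a (0.0673) and Ist1 (0.0673) lost their call too. Ist1 rose with LITAF against control (0.28 ± 0.10), as did Mvb12a (0.42 ± 0.14), while Vps4a (0.17 ± 0.09), Vps36 (0.24 ± 0.18) and Chmp4c (0.29 ± 0.13) were not called there. Ist1 and Chmp1a (0.26 ± 0.10) lost their call without H/R + LITAF library 2 or 4, and Ist1 also without control library 3 or 4. Without H/R + LITAF library 1, Chmp4c was called higher (0.43), and Eea1 (-0.81), Vps41 (-0.60) and Vps35 (-0.43) lower.

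Beyond the members, 101 other genes of this route were listed (adaptors, commander and further sorting nexins, WASH, CORVET and Rab exchange factors, endosomal Rabs, phosphoinositide enzymes and SNAREs), and 98 were tested. In H/R + LITAF against H/R cells, 3 of the 98 were called by edgeR (3.06%, against 4.88% of all genes tested), a share near the background, with a median log2 of -0.02 against -0.01 over all genes. The 3, all higher, were Arrdc3, an arrestin-domain adaptor that brings ubiquitin ligases to receptors (0.84 ± 0.17, edgeR adjusted p 0.0108), Rin2, a Rab5 exchange factor (0.66 ± 0.12, edgeR adjusted p 0.00521), and Snx30, a sorting nexin (0.45 ± 0.10, edgeR adjusted p 0.0186). In H/R against control cells, 44 of the 98 rose (44.9%, against 31.8% of all genes) and 19 fell (19.4%, against 31.8%), with a median of 0.23 against 0.01. Those with the smallest p there were Mtm1 (3.20-fold higher), Snx8 (2.16-fold higher), Tollip (2.14-fold higher), Tom1 (2.30-fold higher) and Rin1 (1.95-fold lower). Tom1 and Tollip are ubiquitin-binding adaptors, which gather cargo alongside ESCRT-0.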

How the data were processed

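The authors deposited 1 table of gene-level read counts for all 12 libraries, with Ensembl rat gene IDs and names. Per the file headers the authors deposited raw read counts that had not been normalized. Some of the deposited values are not whole, so they were treated as estimated counts (each an expected count per gene) and rounded before any count test. Not given in the sources used here are the aligner, quantifier, genome build, annotation release and strand setting, so counts of close paralogs and overlapping genes are uncertain. The submitters' processing notes list DESeq2 and edgeR without saying what for. The labels put all libraries in one batch, and 0 columns of per-sample values were left unused. Of 16204 gene rows, 258 shared an ID. The 72 IDs whose rows differed (in the control columns alone) were left out, none of them a member, which left 16002.

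Genes were filtered with filterByExpr by group (11398 kept), scaled by TMM and fitted together over 12 libraries with one mean per group. Differences were tested by edgeR's quasi-likelihood F-test, two-sided, with Benjamini-Hochberg adjustment over all genes tested (edgeR 4.0.16, limma 3.58.1, R 4.3.3). SE was taken as |log2 fold change| over √F, and the common biological coefficient of variation was 14.5%. The script was tested on simulated data. DESeq2 1.42.0, other scalings, no filter, a replicate block, fits of 2 groups and leaving out each library were alternatives. One alternative, leaving out H/R + LITAF libraries 1 and 2 together, was added after seeing the data. Groups and replicate numbers came from the titles. Same-numbered H/R and control libraries deviated together from their group means (correlation over genes 0.30 to 0.57 in every pair), which pairs those numbers by the data and not by a label. The reported values come from the fit without a block, and blocked values are given where they change a member's call in H/R against control. Totals of 16.9 to 20.7 M counts leave counting error as a limit for genes with few reads, such as Rab5a.

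Members, gene lists and motifs were chosen with earlier results of these data known. Values in each library are given for members with the 6 largest rises and 6 largest falls called in H/R against control (3 fell), for any called in H/R + LITAF against H/R, and for the smallest p of each complex there; others named are examples of their complex. Sequences are RefSeq promoters on GRCr8.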

Additional observations from a re-analysis of the deposited data

Results flagged for a closer look

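Each member was examined in each group for 1 library whose distance from the nearest of the others was large relative to the range of the 4. This holds for 13 of 141 groups of 4, where chance gives about 1 in 20 for normally scattered values. The share over all genes tested was not computed. Whether these flags, or the libraries they fall on, are particular to the members is therefore not known. There were 0 in H/R + LITAF, 6 in H/R and 7 in control. All 6 in H/R were library 4. It was the highest for Hgs (151.9 CPM), Pdcd6ip (256.2 CPM), Ptpn23 (76.68 CPM) and Vps33a (52.06 CPM), and the lowest for Vps36 (34.72 CPM) and Snx3 (115.7 CPM). In the control group, library 1 was lowest for Stam (47.56 CPM) and Pdcd6ip (129.6 CPM). Control library 2 was highest for Vps37a (19.06 CPM). Control library 3 was lowest for Chmp2a (33.45 CPM) and Rab7a (212.5 CPM) and highest for Chmp4c (25.68 CPM). Control library 4 was highest for Chmp3 (74.86 CPM). No explanation of these values was tested.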

How the results depend on the processing

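The count of members called in H/R + LITAF against H/R was 0 under every alternative, except without H/R + LITAF library 1, so that leaving out 1 library gave 0 to 2. The count of all genes called there was less stable: 556 in the reported fit, 877 with DESeq2, 1098 in the fit of the 2 groups, 182 at a threshold of 0.01, 362 without H/R + LITAF libraries 1 and 2, and 244 to 1285 when 1 library was left out. The cause was not tested. With a replicate block the count was 873 over 12 libraries and 887 in the fit of the 2 groups, with no member called in either, and same-numbered libraries of these groups correlated at only 0.05 to 0.20. In H/R against control, the replicate block gave 26 members higher and 3 lower over 12 libraries (29 and 3 in the fit of the 2 groups, adding Mvb12a, Rab5a, Snx2 and Vps33a). Scaling by library totals or upper quartile gave 32 higher and 3 lower, adding Chmp2b, Chmp3, Chmp6, Ist1, Mvb12a, Rab5a and Vps33a. These scalings moved the median of all genes to 0.13 and 0.12 and that of the members to 0.45 and 0.44. Of the 25 rises, 22 were called under each of 17 alternatives that kept the threshold, as were all 3 falls. In H/R against control, leaving out 1 library gave 26 to 30 members called, and in H/R + LITAF against control 24 to 30. In H/R + LITAF against control, Vps39 and Mvb12b were not called lower under library totals (26 higher, 1 lower) or upper quartile (28 higher, 1 lower), nor in the fit of the 2 groups (22 higher, 1 lower), and the replicate block over 12 libraries gave 25 higher and 5 lower, adding Chmp4c, Eea1 and Vps41. Among members given library by library under the naming rule, no fold change in the comparison they were chosen for reversed or lost its call, and Vps35 gained one without H/R + LITAF library 1. Of the 24 rises and 3 falls in H/R + LITAF against control, 21 and 1 were called under each of 18 such alternatives. Rab5a, with 5.3 to 24.91 counts a library, is limited by its few counts.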
